A study of Mus musculus with 6 samples.

Results

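The septins are a family of cytoskeletal GTP-binding proteins. The genes described here are Septin2 to Septin11 of the mouse, chosen by name together with every array probe annotated to them, because Septin3 had been noted as higher in Pax6 knockout ectoderm. They are 10 genes with 23 probes, on an array of 45281 probes. A probe counted as expressed when its detection p-value was under 0.01 on at least 3 of the 6 arrays. By that rule 19 of the 23 septin probes and 9 of the 10 genes were expressed, Septin4 being the exception.

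The samples were ectoderm over the eye at embryonic day 9.5, cut from frozen sections by laser. The knockout group was Pax6-/- tissue labelled surface ectoderm (3 arrays), and the wild-type group was tissue labelled lens placode (3 arrays). Both were of mixed FVB and 129 background, and the labels do not describe the Pax6 allele. RNA of 3 embryos was pooled for each genotype and amplified in triplicate, so the arrays of a genotype share 1 pool, their spread is that of amplification and hybridisation, and p-values are too small with respect to embryos.

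Septins of different subgroups join into rods that polymerise end to end into filaments and rings on membranes, actin and microtubules. They form a scaffold at the cleavage furrow, a diffusion barrier at the base of the primary cilium and, in epithelia, part of the lateral cortex. By sequence they fall into the SEPT2, SEPT3, SEPT6 and SEPT7 subgroups. Members of a subgroup can often replace each other in a filament, while Septin7 has no other member in its subgroup.

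Probe detection ranged from 16242 to 17735 per array. Correlations of log2 values over the tested genes were 0.948 to 0.954 among knockout arrays, 0.947 to 0.951 among wild-type arrays and 0.925 to 0.936 between genotypes. Of all 9190 tested genes limma called 3.28% at an adjusted p under 0.05, 1.51% higher and 1.76% lower in the knockout, and 16.9% had an unadjusted p under 0.05. In the labelled tissues, 12 of 14 surface ectoderm markers were tested, 3 of which were called higher (Krt14, Perp and Trp63, changes 2.80, 1.26 and 0.77 on the log2 scale) and 0 lower in the knockout. Of the 12, 6 had changes above 0. The epithelial genes Cdh1 (-0.22) and Epcam (-0.33), with every knockout array below every wild-type array, and the transcription factor gene Tfap2a (-0.49) were not called, and are named after their values were seen. The summed level of the 12 was 15282 to 15623 on knockout arrays and 15665 to 16732 on wild-type arrays. Of 12 lens placode markers 11 were tested, 6 were called lower and 1 higher, among them Prox1 at -2.82, Aldh1a3 at -2.06, Maf, which no knockout array detected, at least 3.18-fold lower, and Bmp4 at 1.74, and the summed level was 6837 to 7208 on knockout arrays and 13103 to 13518 on wild-type arrays. Maf met the detection rule through wild type alone, so its call, counted in the 6, is not read as a test. Sums are of linear normalised intensities over the tested genes of a list.

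Most septins were expressed in eye ectoderm of both genotypes, and outside Septin3 the differences between genotypes did not pass the test over all genes. The brightest expressed probe stood for each gene. Of the 8 tested septin genes other than Septin3, limma called 0 higher and 0 lower at an adjusted p under 0.05. Higher genes made up 46.2% of the calls over all genes, and 26.1% when arrays were scaled to 1 median, which called 93 higher and 264 lower. At an unadjusted p under 0.05 there were 3 of these 8 genes, Septin2, Septin8 and Septin9, against 16.9% of all genes. The knockout arrays lay wholly above the wild-type arrays for Septin9 and Septin10 and wholly below for Septin2 and Septin8, which is 4 of 8, where 22.8% of all genes had arrays that separated the genotypes in this way, 11.2% upward and 11.5% downward. The median change of the 8 genes, knockout minus wild type, was -0.07 on the log2 scale, against -0.01 for all genes. In bulk tissue, fewer cells of a type and less RNA per cell cannot be told apart.

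**Figure D1:**
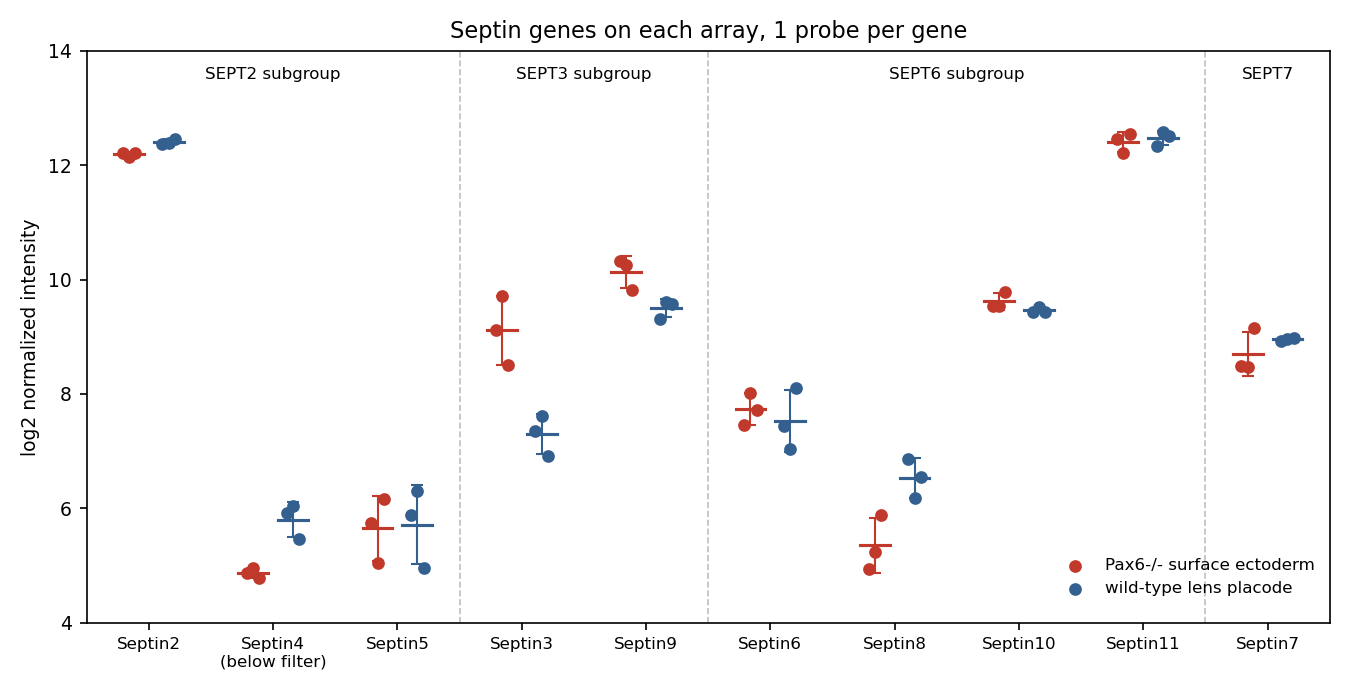
Log2 normalised intensity (y axis) of 1 probe for each septin gene (x axis, grouped by subgroup), with a point for each array, Pax6-/- in red left of wild type in blue, and a line and bar for the mean and SD of 3 arrays. The groups do not overlap for Septin3, with means of 9.12 in the knockout and 7.29 in wild type. The same holds for Septin8, with 5.35 in the knockout, where 1 of 3 arrays detected it, and 6.53 in wild type. Nor do they overlap for Septin2, Septin4, Septin9 and Septin10, while those of Septin5, Septin6, Septin7 and Septin11 do. Heights of different genes cannot be compared because each has its own probe.

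Septin3, a septin enriched in brain and found at presynaptic terminals, gave the value that chose the family, so its change is a description without a test. Its brightest probe, ILMN_1254034, had a log2 intensity of 9.13, 9.72 and 8.50 on knockout arrays 1, 2 and 3, against 7.35, 7.61 and 6.92 on wild-type arrays 1, 2 and 3. Every knockout array was above every wild-type array, and knockout array 2 was the highest. The mean was 9.12 ± 0.61 in the knockout and 7.29 ± 0.35 in wild type (SD, n = 3 each), a change of 1.82 (SE 0.32) or 3.54-fold.

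The raw signals before background correction were 679.6, 899.3 and 495.2 on knockout arrays 1, 2 and 3, against 301.2, 305.1 and 245.1 on wild-type arrays 1, 2 and 3. Their ratio was 2.44, taken with the array background still included. Between 51 and 74 beads carried this probe on each array, and the standard error over beads was 13.7 to 23.6 on knockout arrays and 8.09 to 8.62 on wild-type arrays.

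A second Septin3 probe moved with the first and the remaining 3 did not show a difference of that size. ILMN_2480125 had a log2 intensity of 8.90, 8.95 and 8.11 on knockout arrays 1, 2 and 3, against 6.82, 6.63 and 6.18 on wild-type arrays 1, 2 and 3. Again the groups did not overlap, and the change was 2.11 (SE 0.31) or 4.31-fold.

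ILMN_2555851 stood at 6.41, 6.24 and 5.74 on knockout arrays 1, 2 and 3, against 6.09, 5.95 and 6.18 on wild-type arrays 1, 2 and 3. The groups overlapped, and the change was 0.06 (SE 0.33). ILMN_1218471 had a change of 0.26 (SE 0.39), with means of 5.90 ± 0.46 in the knockout and 5.64 ± 0.50 in wild type (SD, n = 3 each). For ILMN_1257919 it was 0.36 (SE 0.37), with means of 5.69 ± 0.41 in the knockout and 5.33 ± 0.38 in wild type (SD, n = 3 each).

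These 3 dimmer probes lay near the detection limit. ILMN_2555851 was detected on 2 knockout and 3 wild-type arrays, ILMN_1218471 on 1 knockout and 2 wild-type arrays, and ILMN_1257919 on 2 knockout arrays and 1 wild-type array. Both bright probes were detected on all 6 arrays. The platform annotation ties ILMN_1218471 and ILMN_1257919 to the RefSeq mRNA of Septin3, ILMN_1254034 and ILMN_2555851 to cDNA clone records, and ILMN_2480125 to no record. So the difference was carried by a clone-derived probe and by a probe with no record, while the probes tied to the RefSeq mRNA were close to background in both genotypes. Over the 6 arrays ILMN_2480125 correlated with ILMN_1254034 at a Pearson r of 0.977, and the 3 dimmer probes at 0.152 to 0.388. Probe positions within the transcript were not used here.

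**Figure D2:**
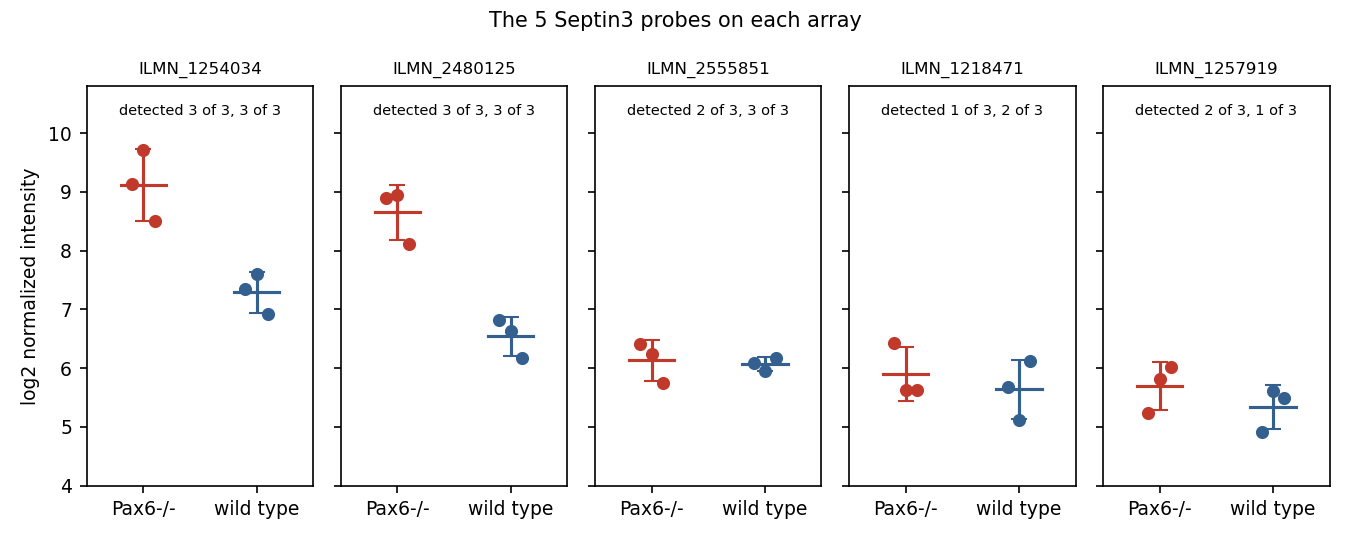
Log2 normalised intensity (y axis) of the 5 Septin3 probes, a panel each, with a point for each Pax6-/- array (red, left) and wild-type array (blue, right), the mean and SD of 3 arrays, and above them the number of arrays on which the probe was detected, knockout and then wild type. The changes were 1.82 and 2.11 at ILMN_1254034 and ILMN_2480125, and between 0.06 and 0.36 at the others.

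With all 5 probes averaged the change of Septin3 was 0.92, and without background correction it was 1.28 at the brightest probe. Slides were read from the array identifiers in the file headers. The change was 1.97 between the arrays of slide 1 and 1.52 between those of slide 2, which held 1 array of each genotype. It was 1.52 to 2.13 with any 1 array left out, the lowest being without knockout array 2.

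In the RefSeq table Septin3 lies on chromosome 15 between the protein-coding genes Cenpm and Wbp2nl, and it overlaps the annotated noncoding gene Gm52180. No probe is annotated to Gm52180, and whether the bright probes read the Septin3 mRNA or that noncoding gene was not tested, because probe sequences were not used here. Of the 6 genes listed on either side of it, Cenpm, a centromere protein gene, had a change of 0.50 (SE 0.45, adjusted p = 0.633). Smdt1, for a subunit of the mitochondrial calcium uniporter, had -0.44 (SE 0.25, adjusted p = 0.416), and Ndufa6, of respiratory complex I, -0.39 (SE 0.32, adjusted p = 0.586). The others were not expressed or had no probe.

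The genes whose values over the 6 arrays ran most like the brightest Septin3 probe were the acetyltransferase gene Sat2, with a Pearson r of 0.995, Gpaa1, a subunit gene of the GPI transamidase (0.994), the growth-cone gene Gap43 (0.990), the extended synaptotagmin gene Esyt3 (0.987) and the histone acetyltransferase gene Naa40 (0.986). Their changes were 0.79 (SE 0.33), 0.97 (SE 0.34), 1.12 (SE 0.33), 0.89 (SE 0.33) and 0.84 (SE 0.26) in that order. Changes above 0 follow from choosing genes by likeness to a probe that was higher in the knockout. Sat2, Gpaa1 and Esyt3 were detected on 5 of the 6 arrays. The 6 points are 3 arrays of each of 2 pools, so the difference between pools enters every one of these coefficients.

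Septin9, also of the SEPT3 subgroup, is expressed in many tissues and binds and bundles actin filaments and microtubules. It stood at 10.33, 10.25 and 9.82 on knockout arrays 1, 2 and 3, against 9.31, 9.61 and 9.57 on wild-type arrays 1, 2 and 3. Every knockout array was above every wild-type array. The change was 0.63 (SE 0.17), or 1.55-fold, with an interval (95%) of 0.26 to 1.01. It did not pass over all genes (limma adjusted p = 0.0772), although it did when knockout array 3 was left out (change 0.79, adjusted p = 0.0346). Leaving out any other array gave an adjusted p of 0.126 to 0.222.

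In the SEPT2 subgroup, Septin2 is a subunit of the cytokinetic septin ring and of the barrier at the base of the cilium. Its brightest probe, ILMN_2914510, stood at 12.21, 12.15 and 12.21 on knockout arrays 1, 2 and 3, against 12.37, 12.39 and 12.46 on wild-type arrays 1, 2 and 3. All knockout arrays were below all wild-type arrays by a small margin, with a change of -0.22 (SE 0.07, interval -0.37 to -0.07, limma adjusted p = 0.130). When arrays were scaled to 1 median instead of quantile-normalised, the change was -0.38 and passed (adjusted p = 0.0406), but that scaling also moved the median of all genes to -0.13. A dimmer Septin2 probe, ILMN_2756696, stood on the other side of 0, with means of 7.11 ± 0.20 in the knockout and 6.83 ± 0.08 in wild type (SD, n = 3 each) and a change of 0.28 (SE 0.29, limma adjusted p = 0.697 over all expressed probes).

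Septin4, whose product is known from the annulus of sperm and, as the isoform ARTS, from apoptosis, fell under the detection limit on all 3 knockout arrays but reached detection on 2 of 3 wild-type arrays, short of the rule for expression. Its single probe read 4.86, 4.96 and 4.78 on knockout arrays 1, 2 and 3, against 5.92, 6.04 and 5.46 on wild-type arrays 1, 2 and 3. The groups did not overlap. Taken against the lowest detected level of each knockout array, it was at least 1.05-fold lower in the knockout. With no detection filter the change was -0.94, given without a test because no knockout array detected the probe.

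Septin5 binds the membrane protein syntaxin and is known from the control of vesicle release in neurons. Its brighter probe was detected on 2 of 3 arrays of either genotype and stood at 5.74, 5.04 and 6.16 on knockout arrays 1, 2 and 3, against 5.88, 6.31 and 4.96 on wild-type arrays 1, 2 and 3. The groups overlapped throughout, with a change of -0.07 (SE 0.44, interval -1.04 to 0.91, limma adjusted p = 0.964). A second probe was detected on 1 array of each genotype and was left out with Septin4. At the detection rule itself, then, the probes just inside were ILMN_1218471 and ILMN_1257919 of Septin3 and ILMN_1256840 of Septin7, each detected on 3 arrays, and those just outside were ILMN_2604393 of Septin4 and ILMN_2626648 of Septin5, each detected on 2.

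The SEPT6 subgroup held the gene with the lowest change. Septin8, known in neurons from its binding to the vesicle protein VAMP2, read 4.94, 5.23 and 5.89 on knockout arrays 1, 2 and 3, against 6.86, 6.18 and 6.56 on wild-type arrays 1, 2 and 3. No knockout array reached the lowest wild-type array, and the probe was detected on 1 of 3 knockout arrays and on all 3 wild-type arrays. The change was -1.18 (SE 0.37, interval -2.00 to -0.36), or 0.442-fold, and it did not pass over all genes (limma adjusted p = 0.127, and 0.107 to 0.290 with any 1 array left out). Without background correction the change was -0.42 (adjusted p = 0.132).

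Septin6, a filament subunit paired with Septin2 and Septin7 in the best studied septin rod, had 5 probes of which 4 were expressed. The brightest, ILMN_2625867, read 7.47, 8.02 and 7.71 on knockout arrays 1, 2 and 3, against 7.44, 7.04 and 8.11 on wild-type arrays 1, 2 and 3. The groups overlapped, with a change of 0.20 (SE 0.32, limma adjusted p = 0.812). ILMN_2992517 read 6.27, 6.46 and 6.40 on knockout arrays 1, 2 and 3, against 6.70, 6.88 and 7.63 on wild-type arrays 1, 2 and 3. It alone of the 4 had groups that did not overlap, with a change of -0.69 (SE 0.34, limma adjusted p = 0.351 over all expressed probes). The other expressed probes had changes of 0.05 and -0.12, and a clone-derived probe was not detected on any array.

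Septin10 and Septin11, further SEPT6 subgroup members that assemble with the others into filaments, differed little. Septin10 read 9.53, 9.54 and 9.78 on knockout arrays 1, 2 and 3, against 9.43, 9.51 and 9.44 on wild-type arrays 1, 2 and 3. The groups just failed to overlap, with a change of 0.16 (SE 0.15, interval -0.17 to 0.48, limma adjusted p = 0.654), which was -0.00 with median scaling. Its second probe was detected on 1 knockout array and 0 wild-type arrays. Septin11 read 12.46, 12.21 and 12.54 on knockout arrays 1, 2 and 3, against 12.33, 12.57 and 12.51 on wild-type arrays 1, 2 and 3. These groups overlapped, with a change of -0.07 (SE 0.10, interval -0.29 to 0.15, limma adjusted p = 0.791).

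Septin7, the subunit present in nearly every septin filament, had 3 expressed probes, with changes on both sides of 0. The brightest, ILMN_1217625, which is tied to the RefSeq mRNA, read 8.49, 8.47 and 9.15 on knockout arrays 1, 2 and 3, against 8.92, 8.97 and 8.98 on wild-type arrays 1, 2 and 3. The groups overlapped because of knockout array 3, with a change of -0.25 (SE 0.22, interval -0.73 to 0.23, limma adjusted p = 0.617).

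ILMN_1256840, a clone-derived probe, read 6.26, 6.21 and 6.43 on knockout arrays 1, 2 and 3, against 5.01, 5.24 and 5.63 on wild-type arrays 1, 2 and 3. It was detected on every knockout array and on 0 wild-type arrays, so that it met the detection rule through the knockout alone. Against the lowest detected level it was at least 1.61-fold higher in the knockout, given without a test. The third probe, ILMN_1226120, also clone-derived and detected on 3 knockout and 2 wild-type arrays, had a change of 0.61 (SE 0.36, adjusted p = 0.452). Averaged over its 3 probes, Septin7 had a change of 0.46, on the other side of 0 from the brightest probe. That average includes ILMN_1256840, so it is also given without a test.

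**Figure D3:**
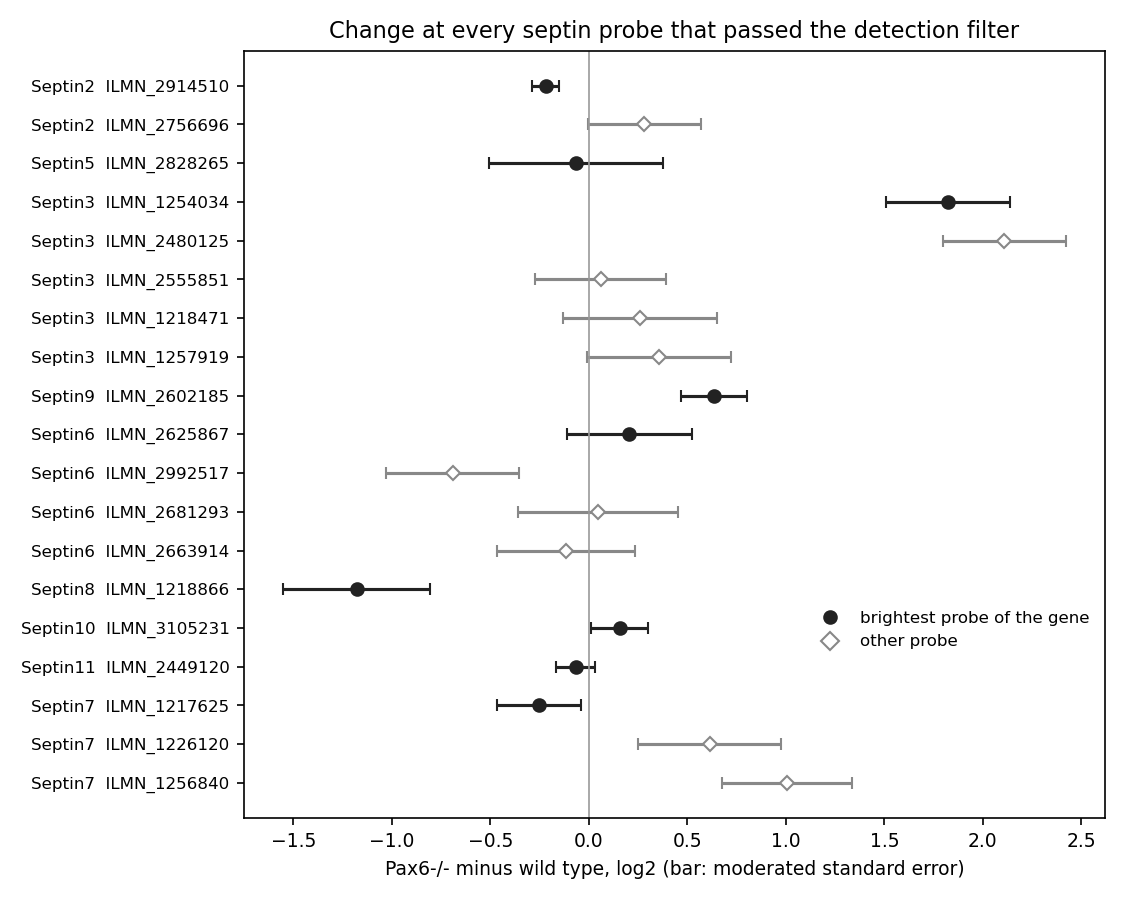
Change at each of the 19 expressed septin probes, Pax6-/- minus wild type on the log2 scale (x axis), with bars for the moderated standard error of the fit on all expressed probes; filled circles are the brightest probe of a gene and open diamonds the others. The changes run from -1.18 at Septin8 to 2.11 at a Septin3 probe, and probes of Septin2, Septin6 and Septin7 lie on both sides of 0.

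Probes of the same gene were compared within arrays. Taking each array's log2 difference between a dimmer probe and the brightest probe of its gene, the knockout and wild-type means differed by 0.50 for ILMN_2756696 of Septin2, by -0.90 for ILMN_2992517 of Septin6, and by 0.87 for ILMN_1226120 of Septin7. In each of these 3 the genotypes were fully separated (exact two-sided permutation p = 0.1, the smallest that 3 against 3 arrays can give, and 0.167 adjusted over the 5 comparisons), so none could pass a threshold of 0.05. The other 2 Septin6 probes had exact permutation p of 0.5 and 0.9. ILMN_1256840 of Septin7, where the means differed by 1.26, has no test for the reason above. For Septin3 the means differed by -1.76 to -1.46 for the 3 dimmest probes and by 0.29 for ILMN_2480125, given without a test. Of the 14 expressed probes of septins other than Septin3 limma called 0. Of all expressed probes it called 2.73%, 1.32% higher and 1.4% lower. At an unadjusted p under 0.05 there were 4 of the 14, against 16.1% of all expressed probes. ILMN_1256840 is among the 4, although its change is given without a test. Of these 14 probes, 7 had changes above 0 and 7 below. The genotypes did not overlap for 3 in the upward direction, of which ILMN_1256840 met the detection rule through the knockout alone, and for 3 in the downward direction, where 21.6% of all expressed probes did not overlap, 11.1% upward and 10.5% downward.

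Genes whose products work with septins were read from lists, against the 3.28% of all genes called and the 16.9% with an unadjusted p under 0.05. The regulators and partners listed were the Borg proteins Cdc42ep1 to Cdc42ep5, which bind septins and the GTPase Cdc42, with anillin (Anln), nonmuscle myosins and others. Of 11 tested, limma called 0, with 2 at an unadjusted p under 0.05, and their median change was 0.14. Cdc42ep1 was detected on 0 of 3 knockout arrays and on all wild-type arrays, and was at least 1.35-fold lower. It met the detection rule through wild type alone, so it is given without a test, although it is among the 2 above. Cdc42ep4 stood at 9.26 ± 0.20 in the knockout and 9.76 ± 0.25 in wild type (SD, n = 3 each), with a limma adjusted p = 0.180. Cdc42ep2, Cdc42ep3 and Cdc42ep5, named after their values were seen, had changes of 0.72 (SE 0.37), 0.76 (SE 0.45) and 0.19 (SE 0.50). Their limma adjusted p were 0.355, 0.440 and 0.893. Cdc42ep2 was detected on 2 knockout arrays and 1 wild-type array, and Cdc42ep3 on 2 arrays of each genotype.

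For the cytokinetic ring and midbody, where septins anchor the furrow, limma called 0 of 14 tested genes, with 4 at an unadjusted p under 0.05 and a median of -0.06. Kif23, the midzone kinesin, had a change of 0.36 (SE 0.09, limma adjusted p = 0.0666), and the GTPase gene Rhoa -0.54 (SE 0.18, adjusted p = 0.141). In the cortical actin list 1 of 12 genes was lower and 0 higher, with 5 at an unadjusted p under 0.05 and a median of -0.06. The called gene was the actin crosslinker Actn1, at 8.32 ± 0.20 in the knockout and 9.28 ± 0.09 in wild type (SD, n = 3 each), with a limma adjusted p = 0.0189, up to 0.0761 with 1 array left out and not called in 5 of those 6 fits. With all 6 arrays and the replicate number as a block, Actn1 was not called either (limma adjusted p = 0.0543). Myl12a, a myosin regulatory light chain gene named after its values were seen, was detected on 0 knockout and 3 wild-type arrays and was at least 1.80-fold lower. It met the detection rule through wild type alone, so it is given without a test, although it is among the 5 above.

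At the ciliary transition zone, where septins contribute to the diffusion barrier, limma called 0 of 10 tested genes, with 1 at an unadjusted p under 0.05 and a median of -0.19. That 1 was Tmem231, a transition zone membrane protein gene, at least 1.81-fold lower by the probe used. This probe was detected on 0 knockout and 3 wild-type arrays, and another Tmem231 probe on 1 knockout array. The probe used met the detection rule through wild type alone, so its change is given without a test. Ahi1, of the same zone, had 0.57 (SE 0.26, limma adjusted p = 0.298).

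Neuronal genes were examined because Septin3 and Septin5 are known from nerve terminals. In the presynaptic list limma called 0 of 5 tested genes, with 1 at an unadjusted p under 0.05 and a median of 0.04. The vesicle GTPase gene Rab3a had a change of -0.48 (SE 0.39, limma adjusted p = 0.587) and the dynamin gene Dnm1 0.82 (SE 0.32, limma adjusted p = 0.217). Of 18 neuron markers 6 were tested and limma called 0, with 3 at an unadjusted p under 0.05 and a median of 0.46.

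Gap43 stood at 7.53 ± 0.49 in the knockout and 6.40 ± 0.21 in wild type (SD, n = 3 each; limma adjusted p = 0.108), and Rtn1, of the endoplasmic reticulum of neurons, at 6.87 ± 0.77 in the knockout and 5.37 ± 0.62 in wild type (SD, n = 3 each; limma adjusted p = 0.120). The other tested markers, named after their values were seen, were the transcription factor gene Isl1, at 9.08 ± 0.51 in the knockout and 8.23 ± 0.38 in wild type (SD, n = 3 each; limma adjusted p = 0.148), and Map2, Elavl3 and Neurog2, with changes of 0.08, -0.12 and -0.50. Isl1 was the largest term of the summed level, which for the 6 tested neuron markers was 1020.2 to 1279 on knockout arrays and 628 to 804 on wild-type arrays. The neuron markers Tubb3, Elavl4, Stmn2, Stmn3, Dcx, Nefl, Nefm, Ina and Neurog1, which are 9 of the 18, were not detected on any array by any probe. Neurod1 and Crmp1 were detected on 2 knockout arrays, Pou4f1 on 1, and all 3 on 0 wild-type arrays.

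**Figure D4:**
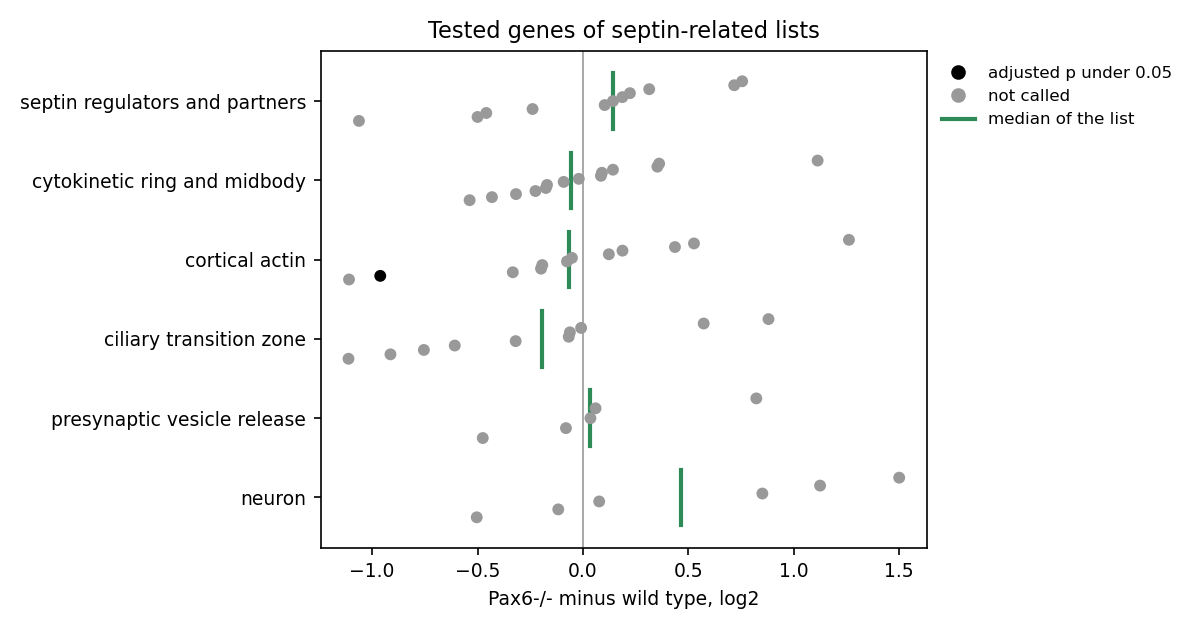
Change of each tested gene, Pax6-/- minus wild type on the log2 scale (x axis), in 6 lists related to septin function (rows); black points passed an adjusted p under 0.05, grey points did not, and the green line is the list's median. A single point, Actn1, is black, and the medians run from -0.19 for the ciliary transition zone to 0.46 for neuron markers.

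Markers of other tissues also differed between the captures, and their counts are read against the 3.28% of all genes called. The neural tube list had 1 of 4 tested genes called higher (Zic1, a zinc-finger gene of dorsal neural tissue, change 1.83, limma adjusted p = 0.00458), 4 of its 11 genes not detected on any array, and a summed level of 804 to 1270.1 on knockout arrays and 411 to 652 on wild-type arrays. In the mesenchyme and neural crest list 3 of 10 genes were higher (Alx4, Col3a1 and Sox9, changes 0.99, 0.94 and 0.74) and 1 lower (Pdgfra, -1.23), with summed levels of 7581 to 8189 on knockout arrays and 5368 to 5779 on wild-type arrays. The erythroid list had 3 of 4 genes higher (Hba-a1, Hbb-bh1 and Hbb-y, changes 1.58, 0.92 and 0.92), with 4417 to 4896 on knockout arrays and 2139 to 2438 on wild-type arrays. Of 2 endothelial genes (Egfl7 and Esam, changes -0.25 and -0.42) and 1 macrophage gene (Aif1, 1.08) tested limma called 0, and 0 had an unadjusted p under 0.05, while 6 genes of either list were not detected on any array. The call of Col3a1 was lost in all 6 fits with 1 array left out (limma adjusted p up to 0.133), with slide as a block (0.0590), with no detection filter (0.0713), with median scaling (0.0823), with probes averaged (0.193) and with the replicate number as a block (0.0889). Those of Alx4, Perp and Trp63 were lost in 4, 4 and 5 of the 6 fits with 1 array left out (adjusted p up to 0.102, 0.0817 and 0.127). With all 6 arrays, Alx4 was also not called with median scaling (limma adjusted p = 0.0539) or no detection filter (0.0561). Nor was it with no trend in the moderation (0.120) or with probes averaged (0.112). Trp63 was not called with median scaling (0.0885), no detection filter (0.0675), no trend (0.0934) or the replicate number as a block (0.0866). With no trend, Sox9 (0.0802), Hbb-bh1 (0.0689) and Hbb-y (0.0534) were not called either. The part of these tissues in the septin values was not tested.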

How the data were processed

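Values came from Illumina bead arrays of amplified, biotin-labelled cDNA. The authors deposited mean bead intensity per probe, linear and not normalised, with a detection p-value, per the file headers. The deposited bead counts and the standard error of the bead signal, per the file headers, were used as measures of precision. GenomeStudio was the array software, per the submitters' processing notes; its version is not given in the sources used here. The authors' normalised intensity table, deposited without a stated method, served as an alternative.

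The package limma 3.58.1 in R 4.3.3 was used. Background correction was by normexp from the detection p-values (offset 16), arrays were quantile-normalised and log2 taken. Genes had 1 symbol per probe in the platform annotation, updated through RefSeq identifiers (GRCm38.p6). The brightest expressed probe stood for a gene (9190 genes), and a second fit took every expressed probe (17321). limma's linear model with an intensity trend compared knockout with wild type, two-sided, with Benjamini-Hochberg adjustment over the whole table. The number of arrays limits the precision. The fit was tested on simulated data.

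Members and the 13 gene lists were chosen with earlier results of these data known. Named genes were every septin, up to 4 called members of a list by size of change or else the 2 with the smallest p, and the 5 genes most correlated with Septin3.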

Additional observations from a re-analysis of the deposited data

How the results depend on the processing

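Of all genes, 139 were higher and 162 lower in the knockout. These counts were 93 and 264 with median scaling, 87 and 105 with no detection filter, 72 and 104 with no trend in the moderation, 28 and 40 from the 4 arrays of slide 1, and 59 to 107 and 84 to 119 with 1 array left out. Of the septins other than Septin3, limma called 0 genes and 0 probes, with 3 genes and 4 probes at an unadjusted p under 0.05. Over the array 16.9% of genes and 16.1% of expressed probes had such a p. With median scaling 1 gene and 1 probe were lower, both Septin2. With 1 array left out 0 to 1 gene and 0 to 1 probe were higher, the 1 being Septin9 without knockout array 3. Median scaling left 1 mesenchyme gene higher and called 1 surface ectoderm gene lower.

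With the replicate number as a block the counts were 81 and 101 genes, and these septin counts stayed at 0. Deviations of same-numbered arrays correlated at -0.03 to -0.00. The arrays numbered 1 lay on different slides, as did those numbered 2, so these values cannot decide whether the numbers pair the arrays. Slide as a block left every septin gene other than Septin3 on its side of the threshold.

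Changes of septin genes that were not called crossed 0 in several settings. Septin10 was at -0.00048 with median scaling, and with probes averaged Septin2 was at 0.031, Septin6 at -0.14 and Septin7 at 0.46. The Septin7 average includes ILMN_1256840, which met the detection rule through the knockout alone. Septin5 was at 0.19 on slide 1. With 1 array left out the ranges were -0.45 to 0.24 for Septin5, -0.041 to 0.49 for Septin6 and -0.14 to 0.030 for Septin11. The cause was not tested. Signal over background limits Septin4 and 4 of the 23 septin probes, which fell short of the detection rule.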
